A study of Mus musculus with 6 samples.

Results

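The cardiac T-box genes Tbx1, Tbx2, Tbx3, Tbx5, Tbx18 and Tbx20 were followed in mouse embryonic cardiomyocytes after knockdown of DNA methyltransferase 1 (DNMT1). They were picked by gene symbol as the T-box factors with known roles in the heart, and all 6 were found among the 43629 genes of the count files. Ventricles of CD-1 embryos at E13.5 were pooled by litter, and the cultured cells were transfected with 12 nM AllStars negative siRNA or with 12 nM of a pool of 4 DNMT1 siRNAs, in 3 cultures each. At 72 h the cells were enriched with magnetic beads against VCAM1, a surface protein of embryonic cardiomyocytes, and poly(A) RNA was sequenced as single reads. No genetic alteration is named for the animals, which gave the cells of both groups, and since embryos of a litter were not kept apart a culture is the unit of replication. The labels do not say whether the cultures of a group came from separate litters, so the p values measure the spread between these cultures.

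T-box factors are transcription factors that share a DNA-binding domain and bind related sites, and members of the family can act on the same gene in opposite directions. TBX5, often together with NKX2-5 and GATA4, activates genes of the working atrial and ventricular muscle, and TBX20 is needed for growth and maturation of the myocardium. TBX2 and TBX3 compete for the same sites as repressors, and keep the atrioventricular canal, the outflow tract and the conduction system from taking on the chamber program. TBX18 marks the epicardium and the venous pole, where the sinus node forms, and TBX1 acts in the pharyngeal mesoderm that gives rise to the outflow tract.

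DNMT1 copies methylation of cytosines in CG pairs to the new DNA strand, so the promoter stretches of members are shown with their CG pairs in capitals. They are the 250 bases before the transcript start, 5′ to 3′ on the strand of the gene, from RefSeq on GRCm38.p6, and they stand for the member with the highest level, the next one, and the nearly silent one. RefSeq promoter entries matched 3 of the 6 members, and Tbx2, Tbx3 and Tbx5 had none. Methylation of these bases was not measured here.
Tbx20, chr9:24774304-24774553, minus strand: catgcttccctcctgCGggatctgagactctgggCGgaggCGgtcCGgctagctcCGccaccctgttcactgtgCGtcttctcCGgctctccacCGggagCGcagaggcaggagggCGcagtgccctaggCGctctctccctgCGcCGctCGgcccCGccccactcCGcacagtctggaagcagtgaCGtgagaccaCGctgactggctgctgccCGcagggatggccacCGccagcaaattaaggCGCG
Tbx18, chr9:87731261-87731510, minus strand: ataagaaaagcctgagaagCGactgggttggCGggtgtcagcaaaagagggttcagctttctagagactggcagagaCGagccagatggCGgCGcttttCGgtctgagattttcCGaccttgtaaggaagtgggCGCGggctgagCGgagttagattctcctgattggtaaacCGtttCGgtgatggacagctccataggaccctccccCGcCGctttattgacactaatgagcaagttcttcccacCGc
Tbx1, chr16:18590672-18590921, minus strand: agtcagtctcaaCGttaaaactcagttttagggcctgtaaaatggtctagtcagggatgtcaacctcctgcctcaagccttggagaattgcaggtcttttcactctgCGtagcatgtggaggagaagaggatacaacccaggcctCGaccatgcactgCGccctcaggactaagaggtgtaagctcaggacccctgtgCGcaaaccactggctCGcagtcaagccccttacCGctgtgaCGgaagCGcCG

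These 3 stretches hold 22, 15 and 10 CG pairs. Over the whole promoter window of 300 bases, which runs 50 bases into the transcript, Tbx20 had 26 CG pairs, Tbx18 had 15 and the Tbx1 window had 16. A 2nd Tbx1 window at chr16:18588850-18589149 had 26. The median over all 32851 RefSeq promoter windows of this length was 7, with quartiles of 3 and 20, so that all 4 windows lie above the median, and those of Tbx20 and the 2nd Tbx1 start above the upper quartile. The nearly silent Tbx1 and the abundant Tbx20 each have a window with 26 CG pairs.

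The 6 libraries held 27852412 to 35896018 reads on genes with negative siRNA and 13739561 to 16186310 with DNMT1 siRNA. The share of uniquely mapped reads that were counted on no annotated feature was 14.6% to 17.5% with negative siRNA and 24.4% to 31.95% with DNMT1 siRNA. Whether these reads lie in introns or outside genes was not examined. Both depth and this share differed between treatments without overlap. The targeted gene Dnmt1 fell to 24.5% of the negative siRNA mean (log2 fold change −2.03, SE 0.11, edgeR adjusted p = 0.000192), while Dnmt3a, the gene that these libraries' treatment tag gives where their titles give DNMT1, had a log2 fold change of 0.24 (SE 0.08, edgeR adjusted p = 0.0919). Genes were called differentially expressed (DE) at an adjusted p (FDR) below 0.05 in edgeR's quasi-likelihood test and a fold change above 1.5, as the study set its limits. By this rule 4.26% of the 15470 genes tested were called higher and 2.23% lower after knockdown (6.49% in all), and the median log2 fold change of all genes tested was −0.0049.

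Knockdown of DNMT1 was followed by a higher level of Tbx20 and a lower level of Tbx2. Tbx20 rose 1.75-fold and Tbx2 fell to 58.1% of the negative siRNA mean. Tbx3, Tbx5 and Tbx18 did not pass the test, and Tbx1 had too few reads to be tested. Of the 6 members, 5 passed the filter on low counts, 1 was called higher and 1 was called lower, beside 4.26% and 2.23% of all genes tested. The same 2 members were called by the FDR limit alone, by which 6.81% of all genes tested were higher and 5.65% lower (12.5% in all).

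Tbx20 (ENSMUSG00000031965, chr9:24718138-24774303 on GRCm38, minus strand) encodes the T-box factor of the growing myocardium, which is also expressed in endocardial cells. Its normalized counts, which are counts scaled to a common library size, were 16306, 8999 and 12706 in the negative siRNA cultures and 22077, 21732 and 22479 in the DNMT1 siRNA cultures. All 3 knockdown cultures lay above all 3 controls. The controls were spread widely, with a coefficient of variation of 28.8%, while that of the knockdown cultures was 1.69%. This was not particular to Tbx20, since the control libraries differed more from each other over the whole count files. Chi-square per degree of freedom between replicates was 28.9 to 59.7 for the controls and 2.89 to 10.7 for the knockdown cultures. This measure also grows with depth, which was higher in the controls. The group means were 12670 ± 3654 and 22096 ± 374 (SD, n = 3), and the log2 fold change was 0.80 (SE 0.18, 95% confidence interval 0.38 to 1.22, edgeR adjusted p = 0.0281).

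Tbx2 (ENSMUSG00000000093, chr11:85832551-85841948, plus strand) encodes the repressor of the chamber program in the atrioventricular canal and outflow tract. The negative siRNA cultures had normalized counts of 178, 258 and 229, and the DNMT1 siRNA cultures had 137, 121 and 129. The groups did not overlap, with the lowest control above the highest knockdown culture. The means were 222 ± 40.5 and 129 ± 7.96 (SD, n = 3), a 1.72-fold lower level after knockdown (log2 fold change −0.78, SE 0.17, 95% confidence interval −1.16 to −0.40, edgeR adjusted p = 0.0221).

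Both calls held without negative siRNA replicate 1 or 2, and that of Tbx2 also without replicate 3. Without negative siRNA replicate 3 the log2 fold change of Tbx20 stayed at 0.81 but the edgeR adjusted p became 0.0593. With each of the 3 DNMT1 siRNA cultures omitted in turn, Tbx20 was between 0.77 and 0.81 and Tbx2 between −0.85 and −0.74, with edgeR adjusted p values from 0.101 to 0.110 and from 0.0696 to 0.114, so that neither was called in any of these 3 fits. Tbx2 was also just outside the limit in limma voom (log2 fold change −0.75, adjusted p = 0.0514). Over all 14 alternative fits the adjusted p ranged from 1.2e-16 to 0.110 for Tbx20 and from 0.000132 to 0.114 for Tbx2, with the lowest value of each from the edgeR fit without a filter. An exact two-sided permutation test of 3 against 3 cultures cannot go below p = 0.1, and both genes were at p = 0.1.

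**Figure D1:**
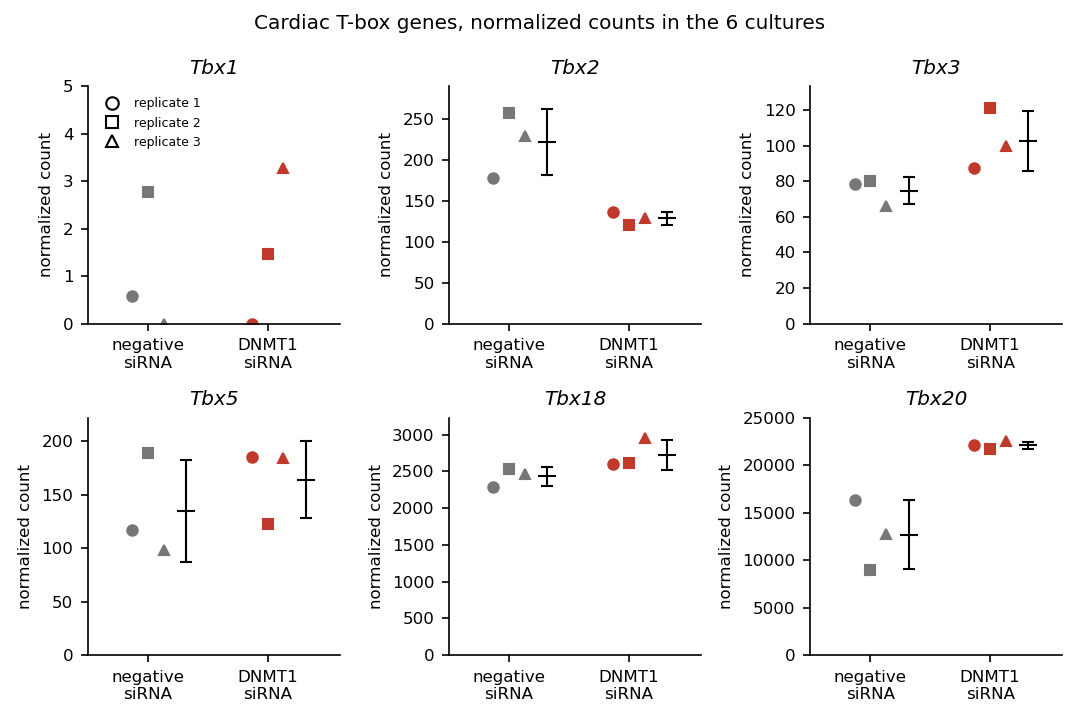
Normalized counts of the 6 cardiac T-box genes in each culture, with 1 panel per gene and its own linear axis from 0. Symbols mark replicate numbers, grey is negative siRNA, red is DNMT1 siRNA, and the bar to the right of each group is the mean ± SD (n = 3; none is drawn for Tbx1, with 0 to 4 reads per library). Tbx20 and Tbx2 separate in opposite directions, while the Tbx5 values of both groups are mixed.

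Tbx3 (ENSMUSG00000018604, chr5:119670669-119684724, plus strand) encodes the repressor closest to TBX2 in role, which is required in the sinus node and the conduction system. Its normalized counts were 78.2, 80.0 and 66.1 with negative siRNA and 87.2, 121 and 99.7 with DNMT1 siRNA. The groups did not overlap, yet the difference did not pass the test (log2 fold change 0.45, SE 0.18, 95% confidence interval 0.03 to 0.88, edgeR adjusted p = 0.146). An antisense gene at the start of Tbx3, Tbx3os1, had at most 2 reads in any library.

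Tbx18 (ENSMUSG00000032419, chr9:87702800-87731260, minus strand) encodes the epicardial and sinus horn factor. It had normalized counts of 2291, 2530 and 2468 with negative siRNA and 2596, 2619 and 2959 with DNMT1 siRNA. The knockdown cultures again lay above the controls, but by a small margin (log2 fold change 0.17, SE 0.08, 95% confidence interval −0.01 to 0.34, edgeR adjusted p = 0.195). The interval excludes a change as large as the fold limit of 1.5 in either direction. The transcript D030062O11Rik overlaps the start of Tbx18 on the other strand, and with a library kit that does not mark strand their reads cannot be told apart where they overlap. Its 31 to 56 counted reads per library were few beside those of Tbx18. Reads that matched both genes would be set aside as ambiguous, so these counts do not measure the overlap.

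Tbx5 (ENSMUSG00000018263, chr5:119832668-119885219, plus strand) encodes the activator of chamber genes. Its normalized counts were 117, 189 and 98.0 with negative siRNA and 185, 122 and 185 with DNMT1 siRNA. Replicate 2 was the highest of the controls and the lowest of the knockdown cultures, so that the groups overlapped (log2 fold change 0.28, SE 0.27, 95% confidence interval −0.33 to 0.90, edgeR adjusted p = 0.525). The interval covers the fold limit on the higher side. With 1 culture left out its log2 fold change ranged from 0.10, without negative siRNA replicate 3, to 0.60, without negative siRNA replicate 2, and Tbx5 was called in none of the alternative fits.

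Tbx1 (ENSMUSG00000009097, chr16:18580979-18590671, minus strand) encodes the factor of the pharyngeal and outflow tract mesoderm. It was read 1, 4 and 0 times with negative siRNA and 0, 1 and 2 times with DNMT1 siRNA. In the libraries with 0 reads, a count of 0 allows up to 3 counts, which is 0.107 CPM (counts per 1e6 reads) in negative siRNA replicate 3 and 0.185 CPM in DNMT1 siRNA replicate 1, for counting error only. A difference between treatments was not detectable at this depth.

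Non-overlap between treatments was common in these data, since 18.3% of all genes tested lay higher in all 3 knockdown cultures than in all 3 controls and 17.7% lay lower (36% in all). Among the 5 members tested, Tbx3, Tbx18 and Tbx20 were of the 1st kind and Tbx2 was of the 2nd.

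Levels were compared between genes as CPM per kilobase of exon, using the union of all annotated exons. With negative siRNA, Tbx20 had the highest level at 48.6 ± 14.0 CPM per kb (SD, n = 3), followed by Tbx18 at 23.7 ± 1.21, Tbx2 at 2.81 ± 0.51, Tbx5 at 1.33 ± 0.47, Tbx3 at 0.52 ± 0.05 and Tbx1 at 0.01 ± 0.02. After DNMT1 knockdown, Tbx20 was at 84.7 ± 1.43 CPM per kb, Tbx18 at 26.6 ± 1.98, Tbx2 at 1.64 ± 0.10, Tbx5 at 1.61 ± 0.36, Tbx3 at 0.71 ± 0.12 and Tbx1 at 0.02 ± 0.02. The order was the same, but Tbx2 and Tbx5, which did not overlap in the controls, could no longer be ranked, since their means lay within 1 SD of each other. With the length of the longest transcript in place of the union of exons, Tbx5 (1.91 CPM per kb) came before Tbx2 (1.64 CPM per kb) after knockdown.

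The balance among the members was described by their shares and by 5 ratios. Tbx20 made up 70.4%, 53.2% and 63.2% of the summed level of the 6 genes in the controls and 74.2%, 74.1% and 72.3% after knockdown, and Tbx2 went from 2.54%, 5.04% and 3.77% to 1.52%, 1.36% and 1.37%. Per kilobase, the ratio of Tbx2 to Tbx20 was 0.0361, 0.0948 and 0.0598 in the controls and 0.0205, 0.0184 and 0.0190 after knockdown, without overlap. The ratio of the repressor Tbx2 to the activator Tbx5 was 1.96, 1.76 and 3.02 in the controls and 0.953, 1.27 and 0.901 after knockdown. The ratio between the 2 related repressors, Tbx2 to Tbx3, was 4.16, 5.89 and 6.34 in the controls and 2.87, 1.83 and 2.37 after knockdown. Each of these 3 ratios of Tbx2 was lower in all 3 knockdown cultures than in all 3 controls. For Tbx20 and Tbx3 this had to be so, and is no further result. Tbx2 alone was lower in all 3 knockdown cultures, and Tbx20 and Tbx3 were higher in all 3. It did not have to be so for Tbx5, whose own values overlapped. The groups overlapped in the other 2 ratios, Tbx20 to Tbx5 (54.2, 18.6 and 50.5 in the controls, 46.5, 69.2 and 47.4 after knockdown) and Tbx3 to Tbx5 (0.471, 0.299 and 0.476 in the controls, 0.332, 0.697 and 0.381 after knockdown).

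The other T-box genes were few and scarce in these cells. Of the 11 others listed, 4 passed the filter, and 0 were called by edgeR in either direction, while 2 had an unadjusted p below 0.05. The exact test of edgeR called 1 of them higher, Tbx4, and DESeq2 and limma voom called 0. Their median log2 fold change was 0.38. Mga, a large protein with a T-box and a MAX-binding domain, was the abundant one, at 8.85 ± 0.34 CPM per kb in the controls and 9.85 ± 0.19 after knockdown (log2 fold change 0.16, SE 0.06, edgeR adjusted p = 0.137). Tbx15 had a log2 fold change of 0.60 (SE 0.27, edgeR adjusted p = 0.193) and Tbx6 one of −0.04 (SE 0.29, edgeR adjusted p = 0.943). T, Tbx10, Tbx19, Tbx21, Tbx22, Tbr1 and Eomes did not pass the filter and had mean normalized counts of 0.19 to 6.03 in either group.

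Tbx4, the hindlimb and lung factor, is the nearest tested gene to Tbx2 and starts 53.9 kb downstream of its start. Its normalized counts were 12.3, 9.65 and 7.0 with negative siRNA and 14.8, 33.5 and 31.1 with DNMT1 siRNA, higher in all 3 knockdown cultures, whereas its neighbour Tbx2 was lower in all 3. The difference narrowly missed the limit (log2 fold change 1.42, SE 0.40, edgeR adjusted p = 0.0534), on raw counts of 9 to 23 per library, and Tbx4 was called by the exact test of edgeR and without the filter.

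**Figure D2:**
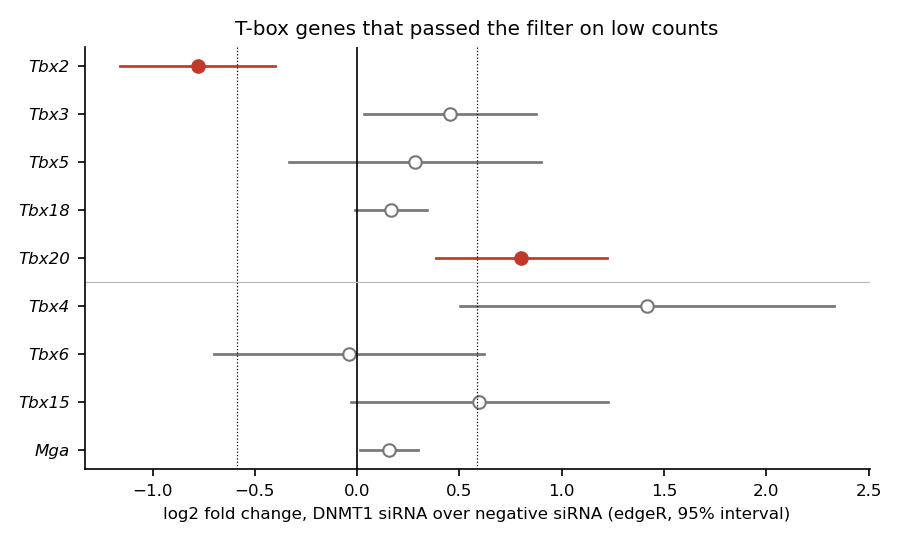
Log2 fold changes of T-box genes after DNMT1 knockdown, with 95% confidence intervals from the edgeR fit, for the 5 cardiac members tested (above the line) and the 4 other family members tested (below). Filled red points were called, open points were not, and dotted lines mark the fold limit of 1.5. Tbx20 and Tbx2 lie on opposite sides of 0, and Tbx4 has the largest value and the widest interval.

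The cells were labelled cardiomyocytes, and their marker genes were checked. None of the 8 cardiomyocyte markers was at 0 in any group, but neither were those of other cell types of the ventricle. In the controls the 8 epicardial markers summed to 792 ± 78.0 CPM per kb and the 8 cardiomyocyte markers to 314 ± 50.4 CPM per kb (SD, n = 3). The 7 markers of fibroblasts and cushion mesenchyme summed to 4580 ± 1099 CPM per kb, and those of smooth muscle, endothelium and macrophages to 1203, 20.3 and 5.21 CPM per kb. The sorted cells therefore held RNA typical of epicardium and mesenchyme beside that of cardiomyocytes. The paper cites its earlier flow cytometry, by which the great majority of cells sorted in this way were cardiomyocytes. From stained cultures at the same dose and time, it reports fewer and larger cardiomyocytes after knockdown, at an unchanged percentage of all cells. Summed levels of different genes do not measure shares of cells. In such bulk samples fewer cells of a type and less RNA per cell cannot be told apart.

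Several of these lists moved with the treatment. Of the 8 cardiomyocyte markers, 6 were called higher, among them Ttn (log2 fold change 1.98), Ryr2 (1.61), Myh6 (1.41), Actn2 (1.25) and Myl2 (0.77), beside 4.26% of all genes tested, and their sum went from 1825 to 2388 CPM in the controls to 4158 to 5049 CPM after knockdown. The endocardial and endothelial list had 3 of 8 called higher (Npr3, Emcn and Kdr) and its sum went from 94.2 to 121 CPM in the controls to 214 to 225 CPM after knockdown. Npr3 rose most in this sum, from a mean of 333 to 2231 normalized counts. Of the list's log2 fold changes, 6 were above 0 and 2 below, those of Tek (−0.35, edgeR adjusted p = 0.0373) and Nfatc1 (−0.11). Tek and Nfatc1 are named after their values were seen. The mesenchymal list had 2 of 7 called lower (Col1a1 and Dcn), with sums of 27539 to 41771 CPM and 21155 to 22431 CPM. The smooth muscle list had 1 of 6 called lower (Pdgfrb), with sums of 2228 to 3459 CPM and 1976 to 2090 CPM. In this list 4 log2 fold changes were below 0 and 2 above. Rgs5, named after its values were seen, was higher in all 3 knockdown cultures (log2 fold change 1.10, edgeR adjusted p = 0.111). DESeq2 called 1 gene of the smooth muscle list higher and 1 lower. Of the 8 epicardial markers 0 were called by edgeR, DESeq2 or limma voom, with 3 at an unadjusted p below 0.05, and of the 4 macrophage markers tested 0 were called by edgeR's quasi-likelihood test or limma voom and 2 were called lower by DESeq2 (2 at an unadjusted p below 0.05 in edgeR). The calls of Myl2, Tnnt2, Emcn, Kdr and Col1a1 were lost when any 1 of the DNMT1 siRNA cultures was left out. Dcn was not called without negative siRNA replicate 3 or DNMT1 siRNA replicate 2 or 3, so that the mesenchymal list had 0 genes called lower without either of these DNMT1 siRNA cultures, and Pdgfrb was not called without negative siRNA replicate 3 or DNMT1 siRNA replicate 2. Vcam1, which encodes the protein used for sorting, had a log2 fold change of −0.26 (edgeR adjusted p = 0.148).

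Tbx20 changed in the same direction as the cardiomyocyte and endothelial sums between treatments, but not among the controls. The controls' Tbx20 level was highest in replicate 1, where the cardiomyocyte sum was lowest, and lowest in replicate 2, where that sum was highest. Per 1000 reads of cardiomyocyte markers, Tbx20 had 411, 173 and 280 reads in the controls and 201, 203 and 249 after knockdown, and the groups overlapped on this scale. Its ratio to the endothelial sum overlapped as well.

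Tbx18 and the epicardial sum both stayed near the level of the controls. Per 1000 reads of epicardial markers, Tbx18 had 38.9, 48.1 and 37.5 reads in the controls and 41.8, 43.7 and 46.8 after knockdown. The groups overlapped on this scale too.

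Tbx2 changed in the same direction as the mesenchymal and smooth muscle sums between treatments. In the controls Tbx2 was highest in replicate 2, as were the mesenchymal, smooth muscle, cardiomyocyte and endothelial sums. The mesenchymal sum is mostly Col1a1 and Col3a1, with control means of 504922 and 182447 normalized counts, against 12610 for Postn, the next gene. The smooth muscle sum is mostly Tagln (46766, against 6352 for Pdgfrb, the next gene). Per 1000 reads of mesenchymal markers, Tbx2 had 0.297, 0.284 and 0.363 reads in the controls and 0.281, 0.263 and 0.267 after knockdown. The lowest control lay just above the highest knockdown culture, on a scale set mainly by these collagen genes. Per 1000 reads of cardiomyocyte markers, Tbx2 had 4.49, 4.97 and 5.05 reads in the controls and 1.25, 1.13 and 1.43 after knockdown. On the same scale Tbx5 had 2.96, 3.64 and 2.16 reads in the controls and 1.69, 1.14 and 2.04 after knockdown, lower without overlap, whereas its fitted log2 fold change was 0.28. The cardiomyocyte sum itself went from 1825 to 2388 CPM in the controls to 4158 to 5049 CPM after knockdown. A gene that rises less than this sum comes out lower on this scale. The share of all genes that do so was not computed. The part of cell composition in the values of Tbx20, Tbx2 and Tbx5 was not tested.

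**Figure D3:**
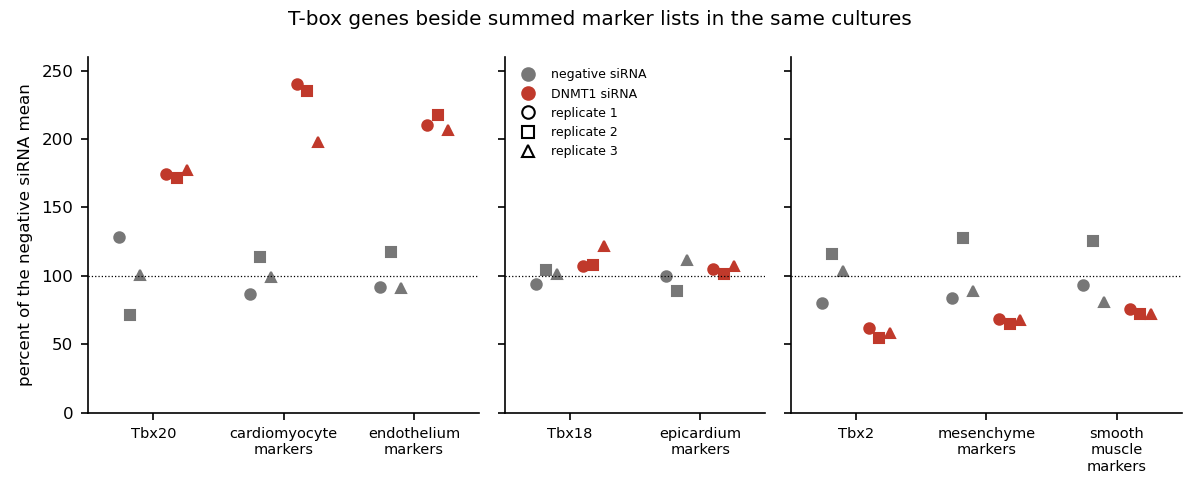
Normalized counts of Tbx20, Tbx18 and Tbx2 and the summed CPM of marker lists in each culture, as percent of the mean of the negative siRNA cultures (dotted line). Grey is negative siRNA, red is DNMT1 siRNA, and symbols mark replicate numbers. Tbx20 and the cardiomyocyte and endothelial sums are all higher after knockdown, Tbx2 and the mesenchymal and smooth muscle sums are lower, and Tbx18 and the epicardial sum stay close to 100%.

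Genes known to be activated by TBX5 in the heart were next examined. Of 8 such genes, all tested, 6 were called higher and 0 lower, beside 4.26% and 2.23% of all genes tested, and the median log2 fold change was 1.00 beside −0.0049 for all genes. This list and those below were chosen with earlier results of these data known, so their counts are a description. The paper itself reports Nppa and Myh6 as higher. Nppa, the atrial natriuretic peptide of chamber myocardium, had normalized counts of 723, 1247 and 875 with negative siRNA and 3372, 2996 and 2578 with DNMT1 siRNA (log2 fold change 1.65, SE 0.19, edgeR adjusted p = 0.0023). Every knockdown culture was above every control, by a wide margin.

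Ryr2, the calcium release channel of the sarcoplasmic reticulum, and Myh6, the alpha myosin heavy chain, rose by 1.61 and 1.41 on the log2 scale. Gja5, the fast-conducting connexin of atrial and Purkinje cells, went from 19.3, 27.6 and 24.9 normalized counts to 52.3, 78.7 and 42.5 (log2 fold change 1.28, SE 0.30, edgeR adjusted p = 0.0292). Dsp, the desmoplakin of cell junctions, had a log2 fold change of 0.73. The remaining gene called was Atp2a2, and Id2 and Kcnj2 were not called (these 3 are named after their values were seen). DESeq2 and limma voom also called 6 higher and 0 lower. The call of Gja5 was lost in 6 of the 14 alternative fits, among them each fit without 1 of the DNMT1 siRNA cultures, and those of Nppa, Ryr2, Myh6 and Dsp in 0. Myh6 and Ryr2 are also among the cardiomyocyte markers above, whose median log2 fold change was 1.09.

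Genes known to be repressed by TBX2 or TBX3 were examined in the same way, and share Nppa and Gja5 with the list above. Of 8 genes, 7 were tested, 4 were called higher and 0 lower, beside 4.26% and 2.23% of all genes tested, and the median log2 fold change was 0.77. This list too was chosen with earlier results of these data known. The cardiomyocyte markers moved with both lists (6 of 8 called higher, sum per kb 2.06 times that of the controls), and their part in these counts was not tested. DESeq2 and limma voom gave the same counts. Smpx, a small muscle protein, went from 163, 263 and 208 normalized counts to 707, 679 and 557 (log2 fold change 1.62, SE 0.18, edgeR adjusted p = 0.0018). Gja1, the connexin of working ventricular muscle, went from 4355, 4340 and 4647 to 8012, 7413 and 7372 (log2 fold change 0.77, SE 0.07, edgeR adjusted p = 0.000837). The members of this list that act in the cell cycle rather than in the muscle, Cdkn1a, Cdkn2a and Mycn, were not called, with log2 fold changes of 0.18, −0.05 and −0.06 and edgeR adjusted p values of 0.294, 0.880 and 0.800 (named after their values were seen). Cited1 was not tested.

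The T-box half-site AGGTGTGA was searched on both strands of the RefSeq promoter windows, where its reverse complement reads TCACACCT. It was present in 1.28% of the 32851 windows, and the shorter core AGGTGT, which the half-site contains, in 13.7%, its reverse complement included. Of the 8 genes of the TBX2 and TBX3 list with a promoter entry, 2 had the half-site, Nppa and Cdkn1a. Both are shown because they share the site while only Nppa was called, with the half-site in capitals, the 250 bases before the start of Nppa and, for Cdkn1a, 30 bases that lie just inside the transcript.
Nppa, chr4:148000472-148000721, plus strand: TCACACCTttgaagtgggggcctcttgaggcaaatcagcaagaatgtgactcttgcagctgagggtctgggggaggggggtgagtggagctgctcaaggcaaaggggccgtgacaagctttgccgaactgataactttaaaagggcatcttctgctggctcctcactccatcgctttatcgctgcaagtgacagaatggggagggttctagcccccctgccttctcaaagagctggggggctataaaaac
Cdkn1a, chr17:29093771-29093800, plus strand: cagcagccgagAGGTGTGAgccgccgcggt

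The site of Nppa begins 250 bases before the transcript start and that of Cdkn1a at base 14 of the transcript, and Cdkn1a held a further core 186 bases before its start. Gja5 and Smpx, which rose, held neither motif in this window. Of the 7 genes of the TBX5 list with a promoter entry, 2 held the core, Nppa and Dsp, and both were called. Dsp held it 219 bases before the start and at base 5 of the transcript. In the lists below, Hcn4, called higher, held the core, as did Id3, Mef2c and Aldh1a2, which were not called. A match describes the sequence only, and binding was not measured. Among the members, the window of Tbx1 shown above held the core, 76 bases before the start, and those of Tbx18 and Tbx20 held neither motif.

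Of 7 pacemaker genes, which TBX3 and TBX18 are known to govern in the sinus node, 6 were tested, 1 was called higher and 0 lower, beside 4.26% and 2.23% of all genes tested. This was the pacemaker channel gene Hcn4 (log2 fold change 0.91, SE 0.19, edgeR adjusted p = 0.0198). Hcn4 went from 267, 447 and 353 normalized counts to 746, 565 and 687, with no overlap between the groups. Gjc1, Cacna1g, Cacna1d and Shox2, the sinus node transcription factor, were not called, with log2 fold changes of 0.14, 0.54, 0.21 and −0.38. The median of the list was 0.17, and the call of Hcn4 was lost in each of the 3 fits without 1 DNMT1 siRNA culture.

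BMP signals are known to induce Tbx2 and Tbx3, and the HEY factors to keep Tbx2 out of the chambers. Of 17 genes of these 2 pathways, 14 were tested, 2 were called higher and 1 lower, beside the same shares of all genes, and the list had its median at −0.10 on the log2 scale. The ligand Bmp4 went from 3185, 2671 and 3214 normalized counts to 4569, 4795 and 4752 (log2 fold change 0.64, SE 0.08, edgeR adjusted p = 0.0034), and Smad6, an inhibitor of BMP signalling, had a log2 fold change of 0.62 (SE 0.09, edgeR adjusted p = 0.0049). Hey1 had 10.5, 22.1 and 18.7 normalized counts in the controls and 1.34, 5.83 and 3.27 after knockdown, a low level in all 6 cultures (log2 fold change −2.26, SE 0.56, edgeR adjusted p = 0.0357). The call of Hey1 was lost in 8 of the 14 alternative fits, limma voom and each fit without 1 DNMT1 siRNA culture among them. In some of the 8 its counts did not pass the filter, so that it was not tested there. Bmp4 was not called without negative siRNA replicate 2, nor Smad6 without that culture or without DNMT1 siRNA replicate 1. The Tbx2 inducer Bmp2 (log2 fold change −0.66, SE 0.45) and the paralog Hey2 (log2 fold change −0.24, SE 0.20) were not called and are named here after their values were seen.

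Of 15 protein partners of T-box factors, all tested, 3 were called higher and 0 lower, beside 4.26% and 2.23% of all genes tested, and the median was 0.11 on the log2 scale. Casz1, a zinc finger protein that binds TBX5, rose from 249, 279 and 252 normalized counts to 696, 693 and 570 (log2 fold change 1.33, SE 0.11, edgeR adjusted p = 0.00076). Nkx2-5, the homeobox partner of TBX5, rose from 285, 343 and 291 to 569, 575 and 458 (log2 fold change 0.80, SE 0.12, edgeR adjusted p = 0.0066), and Hand1 had a log2 fold change of 0.79 (SE 0.21, edgeR adjusted p = 0.0457). All 3 were higher in every knockdown culture than in every control, as were 18.3% of all genes tested. The call of Hand1 was lost without negative siRNA replicate 1 and without each of the DNMT1 siRNA cultures, and that of Nkx2-5 without DNMT1 siRNA replicate 2.

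Of the 11 tested genes of the TBX1 pathway 0 were called by edgeR, DESeq2 or limma voom, 4 had an unadjusted p below 0.05 in edgeR, and the median log2 fold change was 0.04. Flt4, a lymphatic growth factor receptor gene, had a log2 fold change of −0.54 (SE 0.14, edgeR adjusted p = 0.0382), which is below the FDR limit but inside the fold limit. Wnt5a, Aldh1a2, Foxc2 and Foxc1 had log2 fold changes of 0.22, −0.42, −0.08 and −0.10. Their mean normalized counts in the controls were 2439, 1513, 1205 and 669, against 1.11 for Tbx1 itself.

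**Figure D4:**
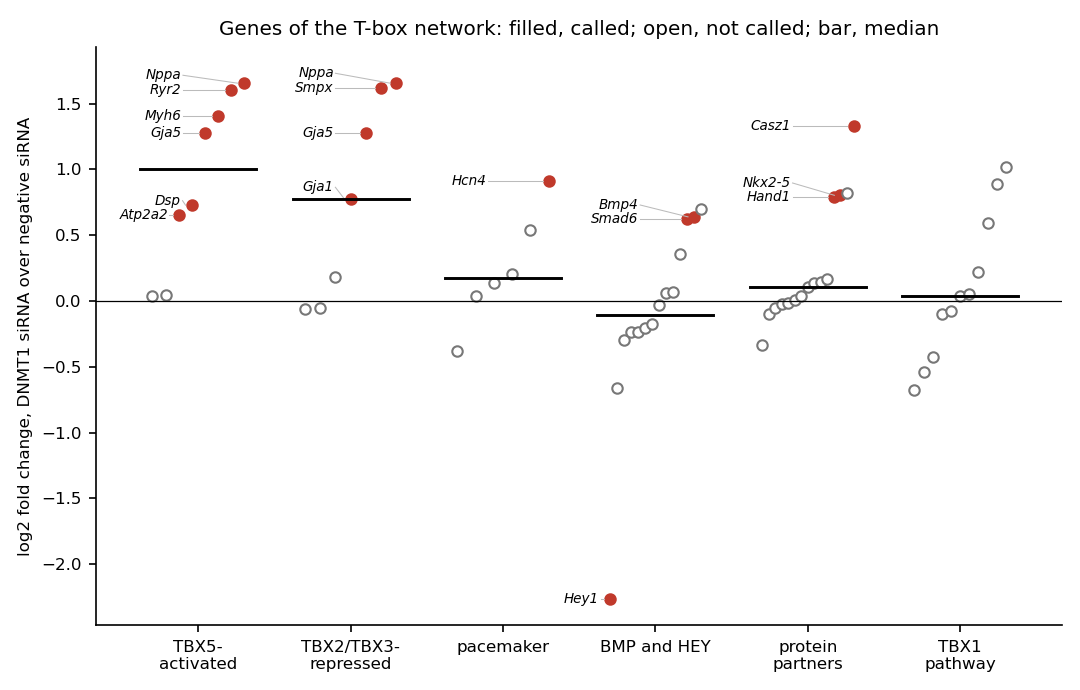
Log2 fold changes after DNMT1 knockdown of each tested gene in 6 lists of the T-box network, in order of size within a list. Filled red points with names were called by edgeR, open points were not, and black bars are medians. The medians of the TBX5-activated and TBX2/TBX3-repressed lists are 1.00 and 0.77, and those of the other lists lie between −0.10 and 0.17.

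Genes around the members were examined for changes of a wider region. Within 500 kb of the 6 gene starts, 80 other genes were listed, 32 were tested, 1 was called higher and 1 lower, beside 4.26% and 2.23% of all genes. Both lie near Tbx1 and neither next to a member that changed. Arvcf, a catenin gene 242.5 kb from the start of Tbx1, had a log2 fold change of 0.89 (SE 0.15, edgeR adjusted p = 0.0101), and Rtn4r, 463 kb away, had −1.34 (SE 0.31, edgeR adjusted p = 0.031). For Tbx2, 5 tested genes within 500 kb had a median log2 fold change of 0.05, and for Tbx20, 3 had a median of −0.24. The nearest tested gene to Tbx20 was Dpy19l1, 271.2 kb away, with a log2 fold change of −0.16 (edgeR adjusted p = 0.306). Tbx3 and Tbx5 are neighbours on chromosome 5, and the nearest tested gene that is not a member, Rbm19, had a log2 fold change of −0.39 (edgeR adjusted p = 0.124), and Gp1bb, nearest to Tbx1, had −0.30 (edgeR adjusted p = 0.605).

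The genes with the most similar pattern over the 6 cultures were listed for each member tested, by Pearson's r of log2 CPM. With 6 points that fall into 2 treatment groups and 15470 genes to choose from, high values arise readily, and r is given as a description only. For Tbx20 they were Chrnb1 (r = 0.9996), Fli1 (0.9994) and Rap2b (0.9981), for Tbx2 Nthl1 (0.9975) and Vasp (0.9962) were among them, and for Tbx18 they were Afg1l (0.9925), Gm26786 (0.9849) and Carf (0.9814). Tbx3 was closest to Gm37581 (0.9965), BC037032 (0.9886) and 4632428C04Rik (0.9860). Tbx5, whose values followed the treatment least, was closest to Cyb5r2 (0.9788), Sept1 (0.9682) and Myh8 (0.9668).

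**Figure D5:**
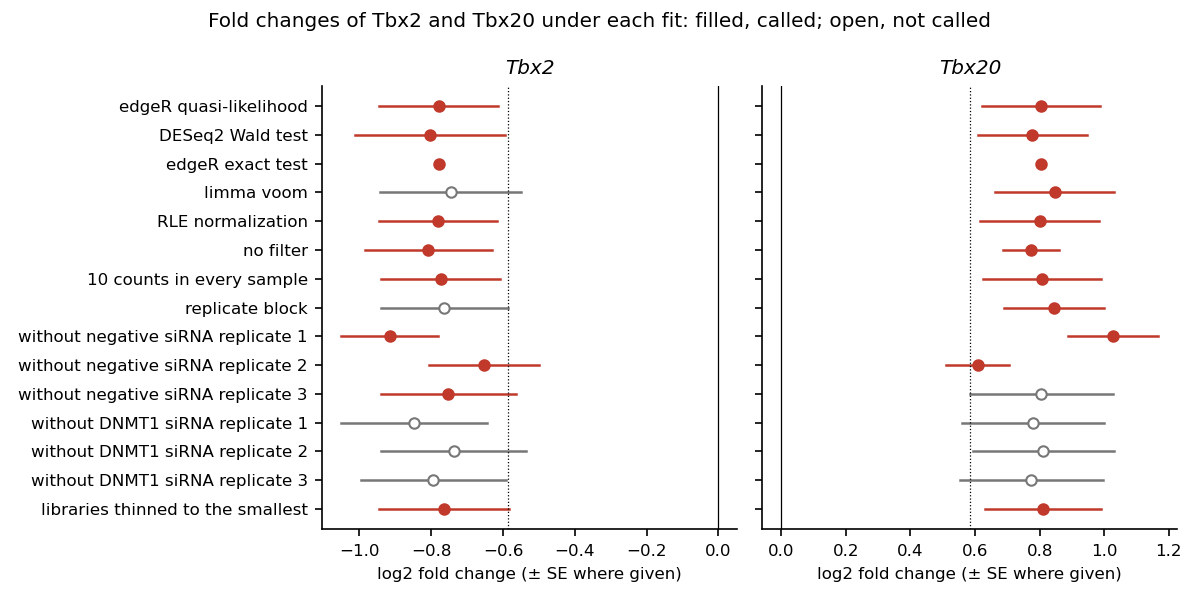
Log2 fold changes of Tbx2 and Tbx20 under the reported edgeR fit and each alternative fit, with ± SE where the tool gives one. Filled red points were called at FDR below 0.05 and fold change above 1.5 (dotted line), and open points were not. The direction is the same in every fit, and most of the open points belong to fits without 1 of the 3 DNMT1 siRNA cultures.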

How the data were processed

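RNA-Seq reads of 6 cultures (3 per treatment) were deposited as raw counts per gene. The authors cleaned the reads with FastQC, mapped them to mm10 with TopHat2 and counted them with HTSeq on the Ensembl GRCm38 annotation, and did not normalize these counts. Rows that name no gene (no feature, ambiguous and the like) were left out of library sizes. Ambiguous reads were 3.58% to 3.65% of uniquely mapped reads with negative siRNA and 6.02% to 6.35% with DNMT1 siRNA.

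The edgeR 4.0.16 package of R 4.3.3 was used on the counts (TMM, filterByExpr with a minimum count of 10 and total of 15, quasi-likelihood F test without a block), and P values were adjusted by Benjamini-Hochberg over 15470 genes. limma 3.58.1 (voom) and DESeq2 1.42.0 gave alternatives, as did the exact test of edgeR, RLE scaling, other filters, a replicate block, equal depth by thinning and leaving out each culture. The edgeR, DESeq2 and limma voom tests were tried on simulated counts, and the other steps were not. A chi-square test between replicates showed no library to be a copy of another. Samples were grouped by title, since the treatment tag disagrees with it. Exon lengths and positions came from a GENCODE annotation of GRCm38 newer than the authors' one, which held 42548 of the genes.

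Normalized counts were scaled by TMM to the geometric mean library size. The members and gene lists were chosen with earlier results of these data known. All members were named, together with every other T-box gene with a count. In each other list up to 5 genes were named, namely the called genes with the largest change, then the most abundant ones. Depth limits are those of counting error only. Some genes of the lists are not reported here and were left out of the lists' counts and medians.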

Additional observations from a re-analysis of the deposited data

How the results depend on the processing

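None of the 5 members tested reversed its direction in any of the 14 alternative fits (Tbx1 was not tested), and Tbx3, Tbx5 and Tbx18 were called in none. The number of members called higher fell from 1 to 0, and that of members called lower from 1 to 0, at an FDR limit of 0.01. Members called lower were also 0 with limma voom (Tbx2 at −0.75, adjusted p = 0.0514) and with the replicate block (Tbx2 at −0.76, adjusted p = 0.0523). When 1 culture was left out, members called higher and members called lower ranged from 0 to 1 each, the log2 fold change of Tbx20 from 0.61 to 1.03 and that of Tbx2 from −0.92 to −0.65. Same-numbered cultures showed no shared deviation, with correlations of deviations of 0.01, −0.02 and 0.03. These cannot settle whether the cultures were prepared in pairs, which the labels do not say. The replicate block gave 513 genes higher and 285 lower against 659 and 345. Under the block the calls of Hand1, Myl2, Kdr and Col1a1 were also lost. Over all genes, leaving out 1 DNMT1 siRNA culture gave 255 to 316 higher and 112 to 146 lower, and no filter gave 994 and 701. limma voom gave 641 and 223, and DESeq2 646 and 495. The causes were not tested. Of the other values under alternatives, 378 of 430 stayed within the limits set and 52 moved. Within 250 kb of members 1 gene was called higher and 0 lower, and within 1000 kb 3 and 1. Depth limits the statements on Tbx1 and on the scarce family members.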
